A study of Homo sapiens with 6 samples.

Results

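The miR-378 family is described here in A549 cells, a human lung adenocarcinoma line, in which METTL1 had been knocked down. METTL1 methylates RNA, and the mark it makes is N7-methylguanosine (m7G). Its members were the 9 rows named hsa-miR-378a-3p, hsa-miR-378a-5p, hsa-miR-378c, hsa-miR-378d, hsa-miR-378e, hsa-miR-378f, hsa-miR-378g, hsa-miR-378h and hsa-miR-378i, found by name among the 2588 mature miRNAs of the raw count tables. All cells carried a doxycycline-inducible short hairpin RNA against METTL1 from a lentiviral vector and had been selected with puromycin. The total RNA group (3 libraries) was taken 5 days after doxycycline at 200 ng/ml and serves as the input. The m7G-RIP group (3 libraries) is RNA of METTL1 knockdown A549 cells recovered with an anti-m7G antibody after heat denaturation; its labels give no day or dose, and the study's methods give the same dose for all inductions. The comparison asks which miRNAs that antibody recovers over input. Both groups are knockdown cells, so the values measure no effect of METTL1, and an IgG control was not analysed here.

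A miRNA is cut from a hairpin transcript, and the strand that stays in an Argonaute protein finds mRNAs through its seed, bases 2 to 8 from its 5′ end. The miR-378a hairpin lies in a gene of energy metabolism, PPARGC1B, which encodes the coactivator PGC-1β. miR-378 is abundant in muscle and fat and is known for its part in mitochondrial metabolism and in muscle. Its 3p strand is the usual guide, and miR-378c to miR-378i are similar sequences from other loci.

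Mature sequences of 7 of the 9 members were found in RefSeq (GRCh38.p14), and they are shown because the members differ by so few bases that reads could be shared among them. Seeds are in capitals, and all sequences run 5′ to 3′.
miR-378a-3p: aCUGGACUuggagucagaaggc
miR-378c: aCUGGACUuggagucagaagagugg
miR-378f: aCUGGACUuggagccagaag
miR-378h: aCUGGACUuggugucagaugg
miR-378i: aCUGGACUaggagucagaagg
miR-378g: aCUGGGCUuggagucagaag
miR-378a-5p: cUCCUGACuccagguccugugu

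The first 5 of these share the seed CUGGACU, and miR-378g has CUGGGCU. A substitution is written with the base of miR-378a-3p, the position from the 5′ end and the base of the member. By this notation miR-378f carries U14C, miR-378g A6G and miR-378i U9A, and these 3 members have no other difference over their length. miR-378h carries A12U and A19U. miR-378c shares its first 20 bases with miR-378a-3p, differs by G21A and C22G and is 25 bases long, so a read of its first 20 bases alone does not tell these members apart. The 5p strand of miR-378a is the opposite arm of the same hairpin and has the seed UCCUGAC. The hairpin is printed with both arms in capitals, the 5p arm first, to show that the arms come from 1 transcript.
MIR378A hairpin: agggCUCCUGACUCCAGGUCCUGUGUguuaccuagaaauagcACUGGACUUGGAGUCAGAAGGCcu

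In GENCODE release 44 (GRCh38), MIR378A lies on the plus strand at chr5:149732825-149732890 in an intron of PPARGC1B. The other hairpins are scattered. MIR378C (chr10:130962588-130962668) and MIR378F (chr1:23929070-23929147) overlap no gene other than the miRNA itself. MIR378G lies at chr1:94745860-94745900 in an intron of SLC44A3-AS1, annotated there as a pseudogene, and MIR378E at chr5:170028488-170028566 in an intron of DOCK2, which encodes an activator of Rac in blood cells. The MIR378H hairpin (chr5:154829458-154829540) lies opposite an intron of FAXDC2. MIR378I is the exonic member, at chr22:41923222-41923297 within an exon of TNFRSF13C, the gene of the B cell receptor for BAFF. miR-378d has 2 hairpin genes, of which MIR378D1 lies at chr4:5923275-5923328 in an intron of C4orf50.

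The total RNA libraries held 9155690 to 10753443 counts and the m7G-RIP libraries 2649238 to 3106556. Levels are given as CPM scaled by TMM, a factor per library that allows for differences in composition. Since a mature miRNA is read end to end, a count needs no correction for length. The p-values measure the spread between libraries, since no label says whether the replicates were separate cultures. As markers of the labelled cell type, 5 epithelial miRNAs were taken: miR-200a-3p, miR-200b-3p, miR-200c-3p, miR-141-3p and miR-429. All 5 had counts, with sums of 528 to 560 CPM in the input and 217 to 280 CPM in the immunoprecipitate. Most of this was miR-200b-3p, with means of 426 and 145 CPM. miR-141-3p was nearly absent, with 6, 0 and 3 counts in total RNA and none in m7G-RIP. miR-429 had 52, 16 and 25 counts in total RNA and 5, 1 and 0 in m7G-RIP. Of 5 blood miRNAs, 4 had no count and miR-451a had 5 counts, all in m7G-RIP replicate 2. The liver miRNA miR-122-5p had none.

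The family was lower in m7G-RIP than in total RNA. Together the 9 members made up 0.771% ± 0.0201 of the counts in total RNA and 0.308% ± 0.00452 in m7G-RIP (SD, n = 3). In scaled levels the family summed to 9345 ± 185 CPM in total RNA and to 2541 ± 100.3 CPM, 3.68-fold lower, in m7G-RIP (SD, n = 3). Of the 9 members, 6 passed the filter on low counts, of which 5 lay over its level in every library, and miR-378i passed through total RNA alone. The 5 were depleted by edgeR's quasi-likelihood test, where 29.2% of all 620 tested miRNAs were depleted. These 5 rows are not independent, since similar members could share reads and miR-378a-3p and miR-378a-5p come from 1 hairpin. None of the 5 was enriched (0 members, and 0 at an unadjusted p under 0.05), whereas 23.5% of all tested miRNAs were. miR-378i is left out of this count because of how it passed the filter. DESeq2, limma-voom and edgeR's likelihood ratio test enriched 0 members too. The shares of all 620 include miRNAs too sparse to reach the filter's level in every library. Where 10 counts were required of every library, 133 of 359 tested miRNAs were depleted and 124 enriched, with 5 members depleted and 0 enriched. The log2 ratios of the 5 had a median of -1.94, against -0.07 for all tested miRNAs. In each of the 5 every m7G-RIP library lay below every total RNA library, a pattern that 36.5% of all tested miRNAs showed; none lay above (0 members), against 29.5% of all tested. With library size alone as the scaling, the calls over all tested miRNAs were 141 depleted and 216 enriched in place of 181 and 146, and 4 members were depleted. A level in total RNA is that of bulk cells, in which fewer cells with a miRNA and less of it per cell cannot be told apart; the ratio compares recovery by the antibody with the input.

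The guide strand miR-378a-3p made up nearly the whole family. It had 8798, 8806 and 9080 CPM in total RNA replicates 1, 2 and 3, and 2322, 2570 and 2446 CPM in the m7G-RIP libraries. The replicates of a group lay close together and the groups were far apart. Its log2 ratio was -1.86 (SE 0.10, edgeR adjusted p 6.1e-07), which is 3.64-fold lower in m7G-RIP. It was the miRNA of rank 15 by level in total RNA and of rank 33 in m7G-RIP. Of the 620 tested miRNAs, 145 had a lower log2 ratio. The log2 ratio was -1.88 when the 7 similar members were added to miR-378a-3p before the test. The division of reads among these rows does not affect that sum. Reads left out or assigned to other names are not restored by it, and reads counted in several rows would enter it more than once.

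**Figure D1:**
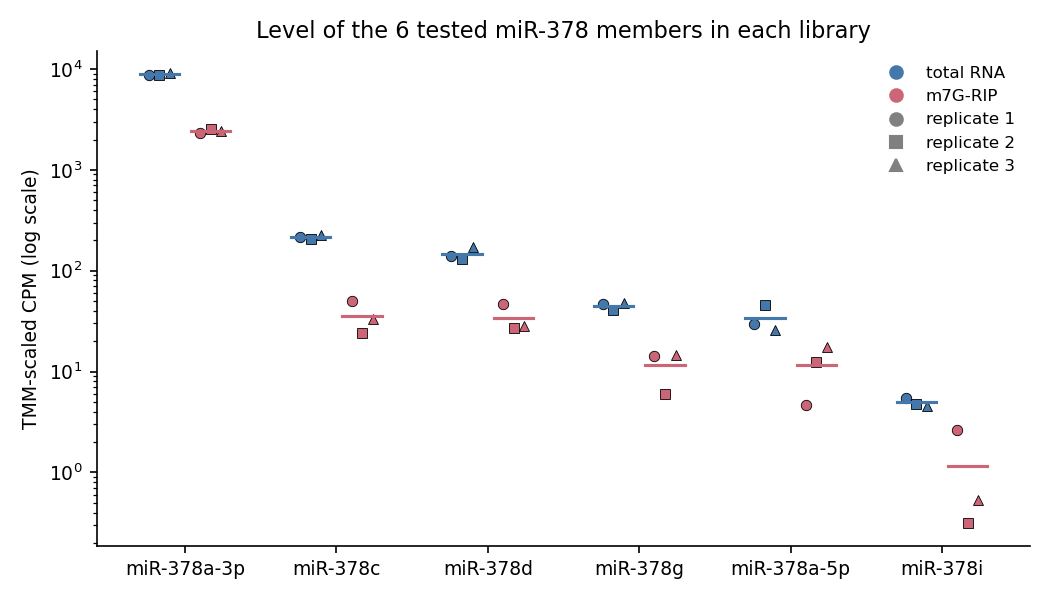
Level of the 6 tested members in each library, in TMM-scaled CPM on a log axis, with total RNA in blue, m7G-RIP in red, a marker shape per replicate and a line at each group mean. Each member's m7G-RIP libraries sit below its total RNA libraries, and miR-378a-3p lies above all others in both groups; miR-378e, miR-378f and miR-378h, with at most 13 counts in any library, are not drawn.

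The other strand of the hairpin, miR-378a-5p, was scarce. It had 29.9, 45.6 and 25.9 CPM in the total RNA libraries and 4.71, 12.6 and 17.7 CPM in the m7G-RIP libraries, the latter from 16, 40 and 66 counts. The groups did not overlap, but the m7G-RIP libraries spread over a wide range, with replicate 1 lowest. The log2 ratio was -1.53 (SE 0.48, edgeR adjusted p 0.0242). Without total RNA replicate 2, the highest library, the log2 ratio was -1.31 and did not pass (edgeR adjusted p 0.0711), nor did it with library size alone (edgeR adjusted p 0.102, the highest of its alternatives, which began at 0.000103). Without m7G-RIP replicate 3, the highest of its group, it was -2.20 (edgeR adjusted p 0.00650).

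The balance of the arms is free of scaling between libraries. miR-378a-3p had 294, 193 and 351 counts per count of miR-378a-5p in total RNA, and 493, 205 and 138 in m7G-RIP. The m7G-RIP libraries lay on both sides of the total RNA libraries. The log2 of that ratio was 8.08 ± 0.442 in total RNA and 7.89 ± 0.920 in m7G-RIP (SD, n = 3), a difference of -0.19 (exact two-sided permutation p = 0.8). It changed sign, to 0.20, without m7G-RIP replicate 3, so no difference between the arms was detectable at this depth and spread.

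miR-378c, with the longest tail of the sequences shown, was the next most abundant member. Its levels were 216, 207 and 225 CPM in the total RNA libraries, and 50.1, 24.2 and 32.9 CPM in m7G-RIP. The total RNA libraries were close together, and m7G-RIP replicate 1 was the highest of its group. The log2 ratio was -2.60 (SE 0.27, edgeR adjusted p 3.85e-05), 6.05-fold lower, the lowest of the tested members, and 84 of the 620 tested miRNAs had a lower one.

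miR-378d followed in level, with 139, 132 and 172 CPM in the total RNA libraries and 46.8, 27.0 and 28.4 CPM in those of m7G-RIP. Here too m7G-RIP replicate 1 was the highest of its group and the groups did not overlap. Its log2 ratio was -2.12 (SE 0.26, edgeR adjusted p 0.000144). miR-378c lay above miR-378d in every total RNA library, while in m7G-RIP their ranges overlapped.

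miR-378g, the member with the changed seed, had 46.8, 40.8 and 47.5 CPM in the total RNA libraries and 14.4, 5.96 and 14.7 CPM in those of m7G-RIP. In this case m7G-RIP replicate 2 was the low library. The log2 ratio was -1.94 (SE 0.37, edgeR adjusted p 0.00211), 3.83-fold lower. In total RNA its range overlapped that of miR-378a-5p, so their order is not set by these libraries.

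miR-378i had few counts, with 49, 40 and 35 in total RNA and 9, 1 and 2 in m7G-RIP. It passed the filter on low counts through total RNA, since only 1 m7G-RIP library reached the filter's level. Its log2 ratio was -2.07 (SE 0.93, edgeR adjusted p 0.0900) and did not pass the threshold. Without m7G-RIP replicate 1 the log2 ratio was -3.66 (edgeR adjusted p 0.0128), from 1 and 2 counts in the other m7G-RIP libraries. By limma-voom the adjusted p was 0.0416 and by edgeR's likelihood ratio test 0.0285, and over all its alternatives it ran from 0.0128 to 0.268.

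**Figure D2:**
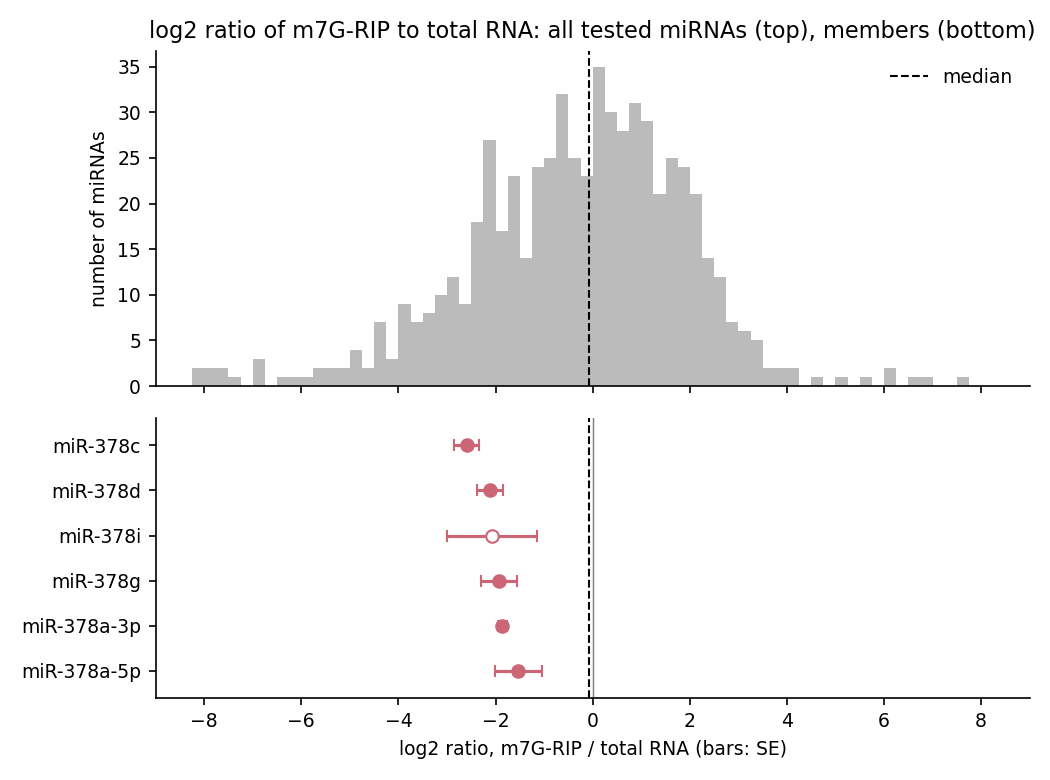
The upper panel is a histogram of the log2 ratio of m7G-RIP to total RNA over the 620 tested miRNAs (vertical axis, number of miRNAs), with a dashed line at the median, -0.07. The lower panel gives the 6 tested members on the same axis with bars of 1 SE, filled where the adjusted p was under 0.05; they lie between -2.60 for miR-378c and -1.53 for miR-378a-5p, and miR-378i is the open point.

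The remaining 3 members were too scarce to test. miR-378e had 11, 6 and 13 counts in total RNA and 1, 1 and 0 in m7G-RIP. The ratio of its summed rates, m7G-RIP over total RNA, was 0.161 (95% exact interval 0.0186 to 0.634, counting error only). miR-378f had 7, 6 and 6 counts against 0, 1 and 1, a ratio of 0.254 (0.0287 to 1.05), an interval that includes no difference. miR-378h had 2, 1 and 3 counts against 0, 2 and 0, at or under 3 counts in every library, so no ratio is given. In an m7G-RIP library a count of 0 allows up to 3 counts, or 0.803 to 0.942 CPM. In total RNA the ranges of miR-378e and miR-378f overlapped.

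Of the relatives outside the family list, miR-378b, which differs from miR-378a-3p by U14G, had 18, 17 and 18 counts in total RNA and 1, 2 and 3 in m7G-RIP, a ratio of 0.273 (95% exact interval 0.0959 to 0.635). Its adjusted p was 0.0976 by edgeR's quasi-likelihood test, for which it passed the filter through total RNA alone. miR-378j had 6 counts, all in total RNA replicate 3. miR-422a, which differs from miR-378a-3p by G10A and A12G, had none in any library, so almost no reads of the family were assigned to these 3 names.

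Shares within the family show whether its make-up differed between the groups. miR-378a-3p took 95.2%, 95.3% and 95.0% of the family counts in total RNA and 95.1%, 97.3% and 96.3% in m7G-RIP. The 95% Wilson intervals were 94.6% to 95.6%, 96.9% to 97.6% and 95.9% to 96.6% for the m7G-RIP libraries, so these differed among themselves by more than counting error. The mean share was 1.05 percentage points higher in m7G-RIP (exact two-sided permutation p = 0.3, adjusted over 9 members 1.0). The difference was 1.61 points without m7G-RIP replicate 1 and 0.518 points without replicate 2, and its size therefore rested on single libraries.

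Only for miR-378c did the shares not overlap between the groups. Its share was 2.32% ± 0.0623 in total RNA and 1.42% ± 0.578 in m7G-RIP (SD, n = 3), a difference of -0.894 points (exact two-sided permutation p = 0.1, the smallest that 3 against 3 libraries can give, adjusted over 9 members 0.9). The m7G-RIP shares were 2.05% (95% Wilson interval 1.77% to 2.38%), 0.915% (0.733% to 1.14%) and 1.30% (1.09% to 1.54%). Replicate 1 alone came near the total RNA range of 2.24% to 2.36%. miR-378d took 1.58% ± 0.196 in total RNA and 1.35% ± 0.493 in m7G-RIP (SD, n = 3; exact permutation p = 0.6). For miR-378g the shares were 0.482% ± 0.0353 and 0.466% ± 0.208 (SD, n = 3; exact permutation p = 1.0), and for miR-378a-5p 0.363% ± 0.117 and 0.455% ± 0.252 (SD, n = 3; exact permutation p = 0.7).

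**Figure D3:**
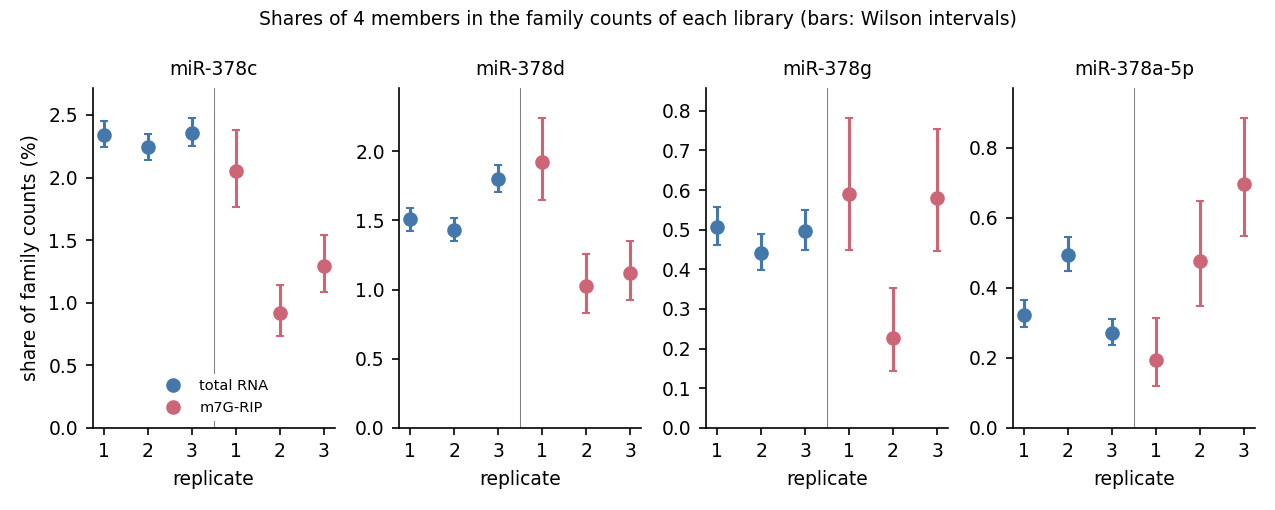
Share of the family counts (vertical axis, %) taken by miR-378c, miR-378d, miR-378g and miR-378a-5p in each library, total RNA in blue and m7G-RIP in red, with 95% Wilson intervals that cover counting error; the vertical scales differ and start at 0. For miR-378c the m7G-RIP libraries lie at 2.05%, 0.915% and 1.30%, below the total RNA libraries, and for the other 3 members the groups overlap.

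The same question was asked as the log2 ratio of each member to miR-378a-3p within a library, for the 7 members with at least 10 counts in all. The difference of m7G-RIP minus total RNA was -0.79 for miR-378c (SE 0.35), with every m7G-RIP library below every total RNA library (exact two-sided permutation p = 0.1, adjusted over 7 members 0.7). It was -1.10 without m7G-RIP replicate 1 and -0.51 without replicate 2. For miR-378d the difference was -0.28 (SE 0.31), for miR-378g -0.17 (SE 0.46) and for miR-378i -0.52 (SE 0.83), with groups that overlapped in each. These differences were no larger than the spread between libraries. With 3 against 3 libraries no such test can pass 0.05.

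**Figure D4:**
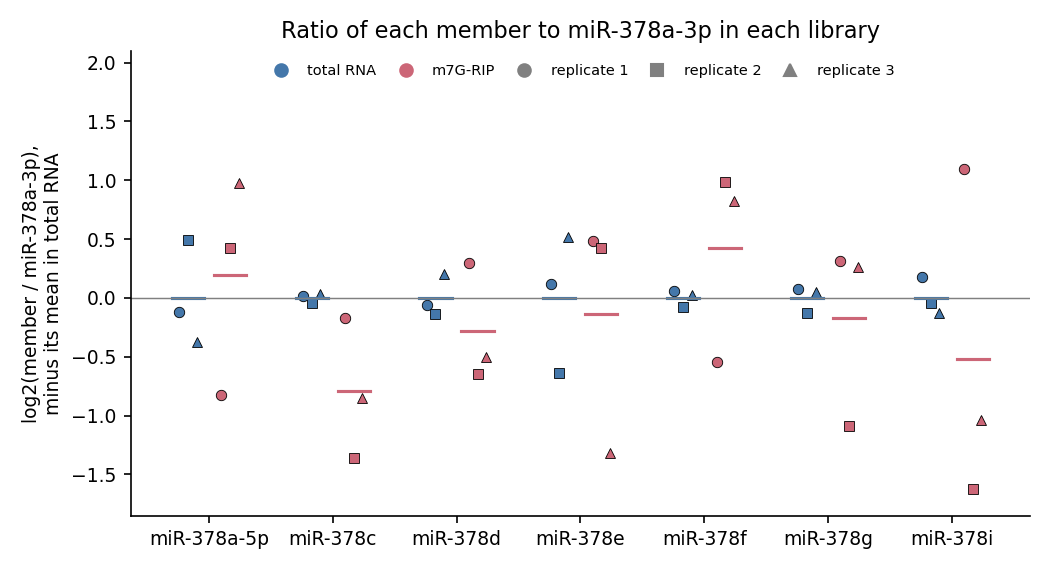
log2 ratio of each of 7 members to miR-378a-3p in each library (pseudocount 0.5), shown as the distance from that member's mean in total RNA, with total RNA in blue, m7G-RIP in red, a marker shape per replicate and lines at group means. miR-378c is the member whose m7G-RIP libraries all lie below its total RNA libraries (mean difference -0.79); the points of miR-378e and miR-378f rest on 0 or 1 count per m7G-RIP library.

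miR-378a-3p and the similar members with a sequence here are G-rich, and miR-378a-5p is not. Mature sequences were found for 557 of the 620 tested miRNAs (89.8%), with a median G content of 27.8%. miR-378c and miR-378g had 40.0% G, miR-378i 38.1% and miR-378a-3p 36.4%, while miR-378a-5p had 22.7%. Across the 557 miRNAs the log2 ratio rose with G content (Pearson r = 0.410, Spearman rho = 0.436), a description of miRNAs that share the same libraries and scaling. miR-378a-3p lay low among miRNAs with at least its G content. Of 177 such others, 90 were enriched and 14 depleted, their median log2 ratio was 1.42, and 11 had a lower log2 ratio. This set includes sequences much richer in G, and ratios rose with G content. miR-378c, miR-378g and miR-378i were among the 11, and miR-378c and miR-378g were among the 14. Of 115 others with at least the G content of miR-378c, 67 were enriched and 3 depleted, miR-378g among these, and 1 had a lower log2 ratio.

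**Figure D5:**
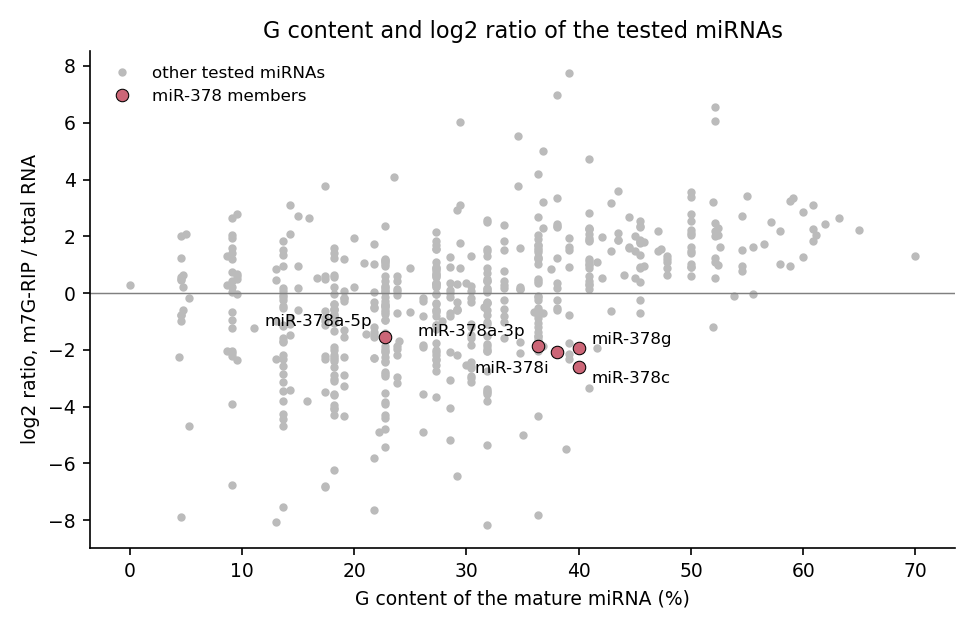
log2 ratio of m7G-RIP to total RNA (vertical axis) against G content of the mature sequence in % (horizontal axis) for the 557 tested miRNAs with a sequence, members in red. The members with 36.4% to 40.0% G lie between -2.60 and -1.86, below most miRNAs of like G content, whereas the 5p strand lies at 22.7% and -1.53.

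miRNAs in introns of other metabolic genes were set beside the family. Of 6 listed, 4 had counts and 3 were tested, 2 of them depleted by edgeR's test (29.2% of all tested miRNAs were) and 0 enriched (also 0 at an unadjusted p under 0.05; 23.5% of all tested were). miR-33b-3p, from SREBF1, the gene of a regulator of lipid synthesis, had 391, 322 and 283 counts in total RNA and 3, 2 and 5 in m7G-RIP, with a log2 ratio of -5.34 (SE 0.42); it passed the filter through total RNA alone, so that it had to differ. miR-107, from the pantothenate kinase gene PANK1, differed by -0.82 on the log2 scale (SE 0.17, edgeR adjusted p 0.00344). The 3p strand of miR-33a, from SREBF2, had -0.46 (edgeR adjusted p 0.636). miR-103a-3p and miR-33b-5p had no count in any library, which allows up to 3 counts in each by counting error, and miR-33a-5p had at most 1. That bound does not cover reads lost in assignment. Whether miR-103a-3p, which lies in both PANK2 and PANK3, lost reads in this way was not tested, so its absence from the cells is not shown.

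Muscle miRNAs were counted because miR-378 is abundant in that tissue. Of 8 listed, 3 had a count. miR-1-3p, a miRNA of heart and skeletal muscle, had 88, 79 and 69 counts in total RNA and 66, 260 and 2 in m7G-RIP replicates 1, 2 and 3. miR-133a-3p had 114 counts in m7G-RIP replicate 2, 20 in total RNA replicate 2 and none in the other libraries, and miR-133b had 4 counts, all in m7G-RIP replicate 2. miR-206, miR-208a-3p, miR-208b-3p, miR-499a-5p and miR-486-5p were at 0. The sum of the list ran from 9.07 to 11.8 CPM over the total RNA libraries and from 0.535 to 119 CPM over those of m7G-RIP. The log2 ratio of miR-1-3p was 1.83 (SE 1.06, edgeR adjusted p 0.179), and only this member of the list was tested. Without m7G-RIP replicate 2, which held the most counts of miR-1-3p and miR-133a-3p, miR-378a-3p had a log2 ratio of -2.07. The values without m7G-RIP replicate 1 or 3 were -2.03 and -2.08. These fits tested more miRNAs than the main fit. The median of all tested moved by -0.26 without replicate 2, by -0.17 without replicate 1 and by -0.33 without replicate 3. As miR-1-3p had counts in the other libraries too, the part of muscle RNA in the result was not tested.

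The 5 miRNAs most like miR-378a-3p were taken by the root mean square distance between profiles of log2 CPM over the 6 libraries, each profile centred on its mean, among 305 others with a mean of at least 100 counts. They were miR-221-3p (distance 0.0866, log2 ratio -1.90), miR-27a-3p (0.102, -1.99), miR-224-5p (0.106, -1.68), miR-30c-5p (0.111, -2.05) and miR-140-3p (0.141, -2.06). Their log2 ratios follow from the choice, since the profiles hold the difference between the groups. The miRNAs next to miR-378a-3p by level in total RNA had other ratios. miR-151a-3p, directly above at 9178 ± 218 CPM (SD, n = 3), differed by -1.05 on the log2 scale (SE 0.14, edgeR adjusted p 0.000196). miR-26a-5p, directly below at 7899 ± 342 CPM (SD, n = 3), had 0.41 (SE 0.16, edgeR adjusted p 0.0582). Thus miRNAs of like abundance in total RNA ranged in m7G-RIP from 2446 ± 124 CPM for miR-378a-3p to 10503 ± 2508 CPM for miR-26a-5p (SD, n = 3).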

How the data were processed

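The tables deposited by the authors hold raw read counts for mature miRNAs, 1 table for each group. Per the study's methods, Trimmomatic removed adaptors, STAR mapped whole reads to GRCh38 with several alignments allowed, and featureCounts summarised them on miRBase. The submitters' processing notes name Bowtie2 instead of STAR. How reads with several alignments were counted is not given in the sources used here, and near-identical members can gain or lose reads by it. miR-365a-3p and miR-365b-3p, of equal G content, had the same log2 ratio (-0.757) and edgeR adjusted p (0.0320). Reads counted in several rows would give such a match, and whether member rows share reads in this way was not tested. The culture text of the m7G-RIP samples names Caco-2 medium; titles and cell line labels give A549.

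Counts were tested with edgeR 4.0.16 (R 4.3.3): TMM, default filter, robust quasi-likelihood F test over 620 miRNAs, Benjamini-Hochberg adjustment, threshold 0.05, 3 against 3 libraries. Alternatives used DESeq2 1.42.0 and limma 3.58.1. The SE of an edgeR log2 ratio was derived from the test, as the absolute log2 ratio over the square root of F. CPM is counts over the effective library size. Shares and ratios within a library (pseudocount 0.5) were compared by exact permutation in scipy 1.17.1. Intervals and floors cover counting error only, as reads carry no molecular identifiers. Replicates of a group differed beyond counting noise (chi-square per degree of freedom 26.0 to 141) and were kept apart. The code was tested on simulated counts. Besides the members, the miRNAs named were those of the lists, the 5 most like miR-378a-3p and its neighbours in level. miR-365a-3p and miR-365b-3p were named for the counting of reads alone. Members and lists were chosen with earlier results of these data known. Sequences are those of RefSeq; hairpin positions are those of GENCODE.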

Additional observations from a re-analysis of the deposited data

How the results depend on the processing

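The 5 members over the filter's level in every library kept a negative log2 ratio in every fit, and none was enriched in any (0 members). miR-378i, which passed the filter through total RNA alone, had a negative log2 ratio in every fit that tested it. The number depleted ran from 4 to 6 over 14 alternatives and across the fits without a library. The log2 ratio of miR-378a-3p ran from -2.14 to -1.31 over 15 alternatives, with its call kept in the 14 that gave an adjusted p. Leaving out single libraries gave -2.08 to -1.89, a range without the main value of -1.86. The filter then passed 756 to 778 miRNAs without an m7G-RIP library and 594 to 598 without a total RNA library. Their medians moved by -0.33 to -0.17 and by 0.17 to 0.25. What part of the change came from the library itself was not tested. The value of -2.14 came without a filter, where the median moved by -0.72. With library size alone the median of all tested miRNAs rose by 0.55, the log2 ratio of miR-378a-3p was -1.31, and the difference in summed family level was -4633 CPM in place of -6804 CPM; leaving out single libraries gave -6857 to -6697 CPM. miR-378a-5p lost its call in 2 alternatives and miR-378i gained one in 3. The share of miR-378a-3p differed by 0.518 to 1.61 percentage points across the values without a library.

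The arm ratio differed by -0.70 to 0.20 across the values without a library, reversing without m7G-RIP replicate 3. Ratios to miR-378a-3p that changed direction without a library ran from -0.20 to 0.70 for miR-378a-5p, from -0.45 to 0.45 for miR-378e, from -0.41 to 0.29 for miR-378g and from -1.33 to 0.029 for miR-378i. For miR-378e a pseudocount of 1 gave 0.40. The cause was not tested, and counts of miR-378e were 0 or 1 in m7G-RIP. Where 10 counts were required of every library, miR-378i was not tested.

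Libraries that share a replicate number were not treated as pairs, since their departures from the group mean correlated at -0.0433, -0.101 and 0.0641, short of 0.1 in each. With the replicate number as a block, 5 members were depleted and 0 enriched, miR-378a-3p had a log2 ratio of -1.86, its share differed by 1.05 points, the arm ratio by -0.19 and the summed level by -6804 CPM. The block changed no call of a member.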
